A study of Mus musculus with 8 samples.

Results

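Genes of 3 families of conjugating enzymes were examined in mouse kidney: the UDP-glucuronosyltransferases (UGT), the cytosolic sulfotransferases (SULT) and the soluble glutathione S-transferases (GST). Members were taken by symbol from the deposited expression table, as every gene whose symbol starts with Ugt1 to Ugt3, with Sult and a digit, or with Gst, a class letter (a, k, m, o, p, t or z) and a digit. That gave 68 of 34745 genes, of which 21 were UGT, 25 SULT and 22 GST genes, and 7 of the 68 are annotated as pseudogenes.

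Conjugation attaches a polar group to drugs, hormones and reactive metabolites, which can then be carried out of the cell and excreted. UGTs take glucuronic acid from UDP-glucuronic acid in the endoplasmic reticulum, SULTs take sulfate from the donor PAPS in the cytosol, and GSTs join electrophiles to glutathione, whose conjugates are trimmed to mercapturates. In the kidney the proximal tubule is the segment best known for this chemistry, since it both takes up such compounds from blood and secretes the conjugates into urine.

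Messenger RNA of whole renal tissue was sequenced at day 14 in 8 libraries. They were kidney labelled uIRI with transplantation of MSCs, written uIRI+MSC here (n = 3), kidney labelled uIRI (n = 3) and sham kidney (n = 2), all from mice labelled wild type. In kidney research uIRI usually means ischaemia followed by reperfusion of a single kidney, and MSC a mesenchymal stem or stromal cell. The labels leave both terms unexplained, and the origin, number and timing of the cells, the strain, age and sex of the mice, and whether each library is a separate animal are not given, so p-values measure the spread between these libraries, which may be technical.

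Depth was 11592986 to 24300112 counts per library, and 16576 genes had enough counts to be tested. Levels are given in CPM, counts relative to library size after TMM scaling between libraries, and in FPKM, which adjusts for gene length but carries no TMM scaling. TMM factors were 1.03 to 1.07 in uIRI+MSC, 1.13 to 1.22 in uIRI and 0.706 to 0.766 in sham, so a log2 ratio of injured to sham kidney lies higher in FPKM than in CPM, nearer 0 for genes that are lower in uIRI and farther from 0 for genes that are higher. Transcripts of the mitochondrial genome took 6.07 to 11.3% of counts in uIRI+MSC, 3.49 to 4.84% in uIRI and 14.2% in sham. Markers of nephron segments were present in all libraries, while the steroid enzyme genes Cyp11a1 and Cyp11b1 of the adrenal and the adipose markers Adipoq and Plin1 had too few counts to be tested. The third adrenal marker, Star, had enough. The 6 listed hepatocyte markers were present too. They summed to 674 to 916 CPM in uIRI+MSC, 78.2 to 327 CPM in uIRI and 1521 to 1913 CPM in sham. The source of this signal was not tested.

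Of the 68 members, 44 passed the filter on low counts (16 UGT, 7 SULT and 21 GST), 19 had no counts in any library, and the other 5 had between 2 and 8 counts in all. The silent members were Ugt2a1, Ugt2a2, Ugt2b1, Ugt2b36, all 12 listed genes and pseudogenes of the Sult2a cluster, Sult3a1 and the pseudogenes Sult1c2-ps1 and Sult1c2-ps2. The estrogen sulfotransferase gene Sult1e1 had 4 counts, all in uIRI+MSC. Members that passed the filter only through a group with high counts had to differ between groups, so counts over the 44 describe these genes and not the whole of each family.

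In sham kidney the UGT signal came mostly from 2 genes. Ugt2b38 stood at 537 and 475 FPKM and Ugt3a2 at 528 and 416 FPKM, which together with Ugt1a7c (107 and 88.9 FPKM), Ugt3a1 (88.8 and 76.9 FPKM) and Ugt2b37 (75.5 and 44.9 FPKM) led the family. Ugt2b38 lay above Ugt3a2 within each sham library, though their values interleave between libraries. The margin was narrow in the library with 537 and 528 FPKM. Ugt1a7c, Ugt3a1 and Ugt2b37 do not overlap in sham, though the lowest Ugt1a7c value lies just above the highest of Ugt3a1. Sult1d1, which encodes a sulfotransferase of dopamine and other catechols, made up 77.9 to 83.9% of the SULT sum of FPKM in sham, and Sult1c2 14.6 to 20.1%. The GST sum was spread more widely, led by Gstz1 (180 and 133 FPKM), whose enzyme isomerises maleylacetoacetate in tyrosine breakdown, the mu class gene Gstm1 (139 and 103 FPKM) and the pi class gene Gstp1 (109 and 91.0 FPKM). That order held within each sham library, though the values of neighbours overlap between libraries.

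**Figure D1:**
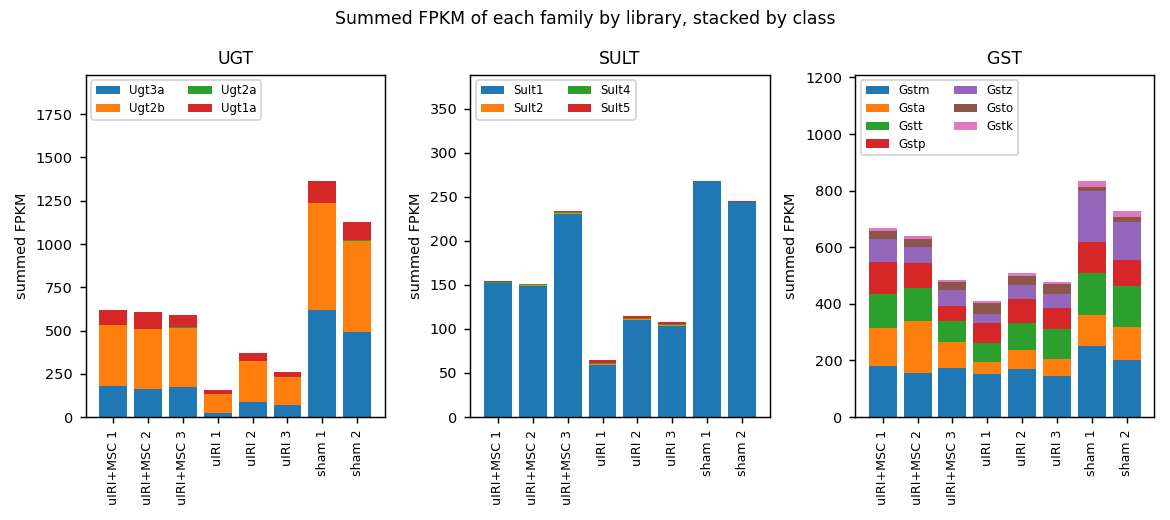
Summed FPKM of the UGT, SULT and GST genes in each of the 8 libraries (bars), stacked by class of gene. The UGT sum was 590 to 621 in uIRI+MSC, 154 to 368 in uIRI and 1129 to 1365 in sham, while the GST sum overlapped between uIRI+MSC (485 to 667) and uIRI (410 to 507).

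What had changed in the injured kidney by day 14 is addressed by setting uIRI against sham. Among the members that fell were leading genes of the sham kidney, Ugt3a2, Ugt2b38, Ugt1a7c, Sult1d1 and Gstz1, and also the less abundant Ugt3a1 and Gsta3. A few of low abundance were higher, namely Sult4a1, Sult5a1 and Gstm6, and so was Gsto1. The directions of Sult4a1 and Sult5a1 were fixed in advance, since they passed the filter on low counts only through the injured groups. That of Ugt1a2, which fell, was fixed too, as it passed only through sham and uIRI+MSC. Of the 44 tested members 24 (54.5%) fell and 4 (9.09%) rose by the quasi-likelihood test of edgeR at an adjusted p under 0.05, where 26.3% of all tested genes fell and 28.3% rose. The median log2 change was -1.18 over the members and 0.06 over all tested genes. In 30 members every uIRI library lay below both sham libraries and in 6 above both, against 36.5% and 40.6% of all tested genes. Scaling by library size alone, which moves the median of all genes to 0.73, gave 18 members lower and 8 higher, against 12% and 54.6% of all tested genes.

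Differences between the families in these counts were not tested. Of all tested genes, 26.3% fell and 28.3% rose. Among 16 tested UGT genes 8 fell and 0 rose (median log2 change -2.05). Among 21 tested GST genes 13 (61.9%) fell and 2 (9.52%) rose (median -1.08). Among 7 tested SULT genes 3 (42.9%) fell and 2 (28.6%) rose (median 0.43), the latter share near that of all tested genes. Sult4a1 and Sult5a1, which rose, passed the filter on low counts only through the injured groups, so their direction was fixed in advance. The same holds for Ugt1a2 among the UGT genes that fell, which passed only through sham and uIRI+MSC. The UGT sum of FPKM was 154, 368 and 258 in uIRI and 1365 and 1129 in sham, a log2 ratio of means of -2.26, or -3.10 from TMM-scaled CPM. The SULT sum was 64.3, 115 and 108 FPKM in uIRI and 268 and 245 FPKM in sham (-1.42, or -2.13 from CPM), and the GST sum was 410, 507 and 478 FPKM in uIRI and 835 and 726 FPKM in sham (-0.75, or -1.38 from CPM). All 3 sums were lower in each uIRI library than in either sham library.

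Markers of the proximal tubule and of several, but not all, other nephron segments moved in the same direction. All 12 listed proximal tubule markers fell in uIRI, with a median log2 change of -3.28. Their summed level was 1632 to 6033 CPM in uIRI and 35121 to 47724 CPM in sham. None of the 12 was at 0 in any library. Both markers of the thick ascending limb (median -1.85), of the distal convoluted tubule (-3.62) and of the principal cell (-3.58) fell too. Of the 2 intercalated cell markers 1 fell and 1 did not pass. The 2 podocyte markers did not pass (median 0.15), with a summed level of 158 to 194 CPM in uIRI and 146 to 186 CPM in sham. Of the 3 endothelial markers 1 fell and 2 did not pass (median 0.12). All 5 tested hepatocyte markers fell (median -3.47). The 4 markers of injured tubule rose, with a summed level of 772 to 1303 CPM in uIRI and 21.3 to 21.8 CPM in sham. The 5 macrophage markers all rose, with a summed level of 2367 to 3851 CPM in uIRI and 175 to 219 CPM in sham, and so did the 4 fibroblast markers (3129 to 7436 CPM in uIRI and 224 to 322 CPM in sham). The part of these shifts in the changes of the conjugating enzymes was not tested. In whole tissue, fewer cells of a type and less RNA of a gene per cell cannot be told apart.

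**Figure D2:**
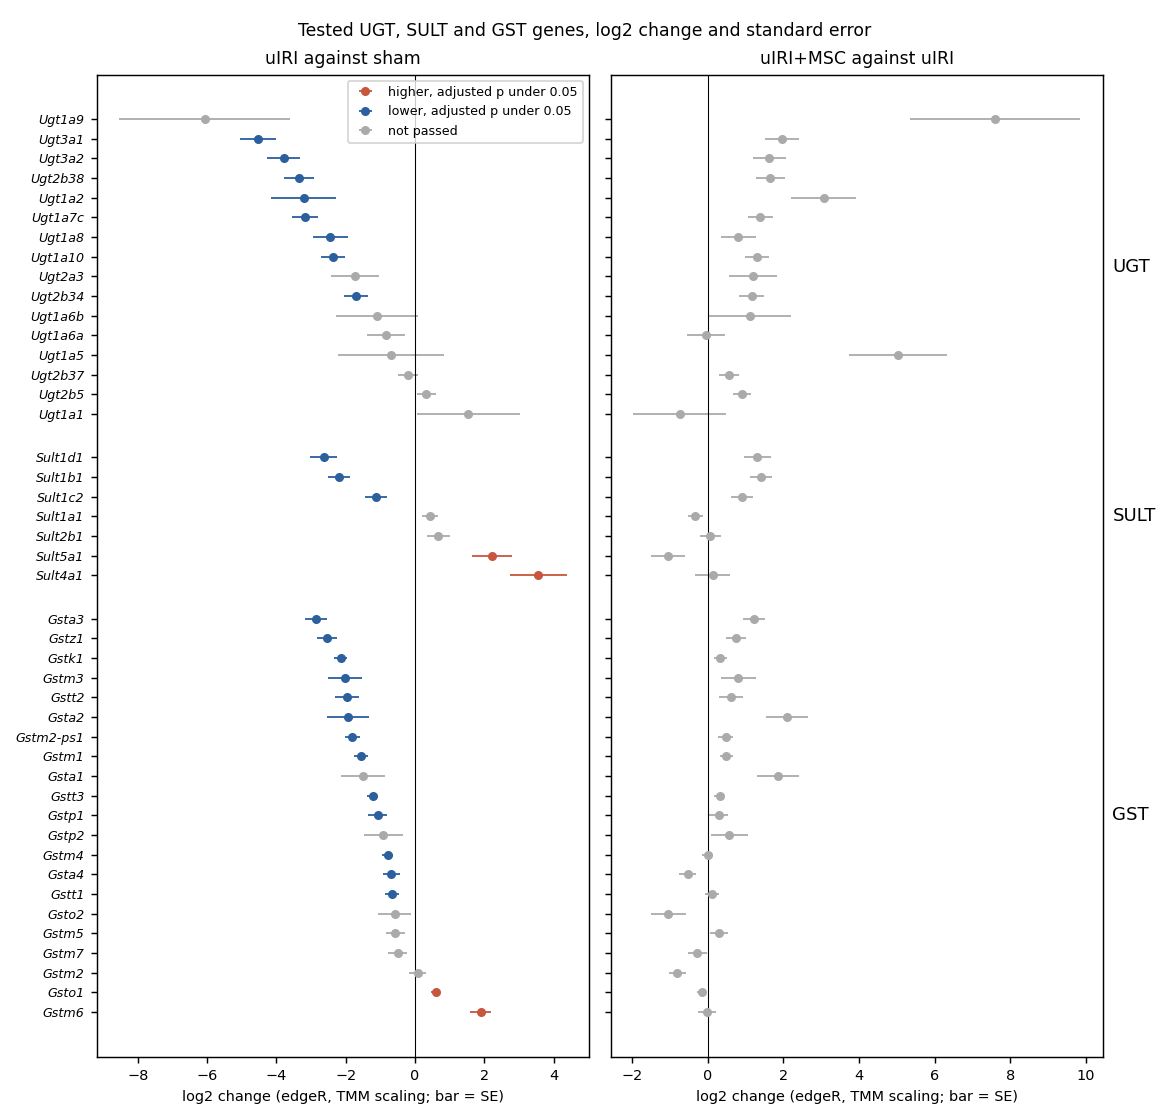
Log2 change of each of the 44 tested members in uIRI against sham (left) and in uIRI+MSC against uIRI (right), with its standard error from edgeR. Colours mark an adjusted p under 0.05. In uIRI against sham 24 members were lower and 4 higher, and no member passed in uIRI+MSC against uIRI. Ugt1a9 had 3 counts over the uIRI libraries, so its position depends on how low counts are handled.

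The UGT3 genes had the largest falls that passed the test. In humans, UGT3A1 and UGT3A2 use sugar donors other than UDP-glucuronic acid. Ugt3a1 (ENSMUSG00000072664, GRCm38 chromosome 15, 9273319 to 9315032) measured 5.25, 25.7 and 17.8 CPM in uIRI against 420 and 335 CPM in sham. Its log2 change was -4.54 ± 0.52 (SE, adjusted p = 0.000188 by edgeR). Its neighbour Ugt3a2 (ENSMUSG00000049152, chromosome 15, 9335550 to 9370955) measured 65.4, 262 and 207 CPM in uIRI against 2873 and 2083 CPM in sham, a log2 change of -3.80 ± 0.49 (adjusted p = 0.000321). In both genes uIRI 1 was the lowest library and no uIRI library came near sham. Within a library, which needs no scaling between libraries, the ratio of Ugt3a2 to Ugt3a1 in FPKM was 10.8, 8.89 and 10.1 in uIRI and 5.95 and 5.40 in sham.

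The coding sequences of the UGT3 pair are 93.3% identical, and 7.01% of the 50-base words of Ugt3a2 transcripts and 7.60% of those of Ugt3a1 occur in another gene, so most reads could be told apart. The opening 60 coding bases, from the GENCODE M21 annotation of GRCm38, are shown as a stretch in which the pair differs. They are not a measure of the identity over the whole coding sequence. Capitals in Ugt3a1 mark its 7 differences from Ugt3a2.
Ugt3a2: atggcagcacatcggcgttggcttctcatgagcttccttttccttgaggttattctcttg
Ugt3a1: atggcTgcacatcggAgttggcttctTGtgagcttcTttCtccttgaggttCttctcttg

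Of the UGT2B genes, whose products glucuronidate steroids and other lipophilic compounds, Ugt2b38 and Ugt2b34 fell, and Ugt2b37 and Ugt2b5 did not pass. Ugt2b38 (ENSMUSG00000061906, chromosome 5, 87409942 to 87424203) measured 54.9, 199 and 131 CPM in uIRI against 1439 and 1173 CPM in sham, a log2 change of -3.35 ± 0.43 (adjusted p = 0.000324 by edgeR). Ugt2b37 (ENSMUSG00000057425, chromosome 5, 87240493 to 87254804) measured 105, 182 and 119 CPM in uIRI against 203 and 111 CPM in sham, and its groups overlap. Its change of -0.21 ± 0.29 did not pass (adjusted p = 0.558), and became 0.46 with scaling by library size alone and 0.31 without sham 1. Ugt2b5 (ENSMUSG00000054630, chromosome 5, 87124960 to 87140318) had 5.45, 8.47 and 7.35 CPM in uIRI against 6.80 and 4.51 CPM in sham (0.33 ± 0.27, adjusted p = 0.33). The order of the leading UGT genes thus differed between groups. Ugt2b37 made up 28.2 to 43.9% of the UGT sum of FPKM in uIRI and 3.98 to 5.53% in sham, and the ratio of Ugt2b38 to Ugt2b37 within a library was 0.524, 1.09 and 1.10 in uIRI and 7.11 and 10.6 in sham.

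The UGT2B values rest on reads from nearly identical genes. The coding sequence of Ugt2b38 is 94.1% identical to that of Ugt2b37 and 97.1% identical to that of Ugt2b5, and 37.4% of the 50-base words of Ugt2b38, 18.3% of those of Ugt2b37 and 41.7% of those of Ugt2b5 occur in another gene. The handling of reads that match several genes was not stated in the labels or headers, so the split between these 3 genes is uncertain. Their opening 60 coding bases are printed to show how little separates them there. The capital in Ugt2b37 marks its single difference from Ugt2b38, and Ugt2b5 has 0.
Ugt2b38: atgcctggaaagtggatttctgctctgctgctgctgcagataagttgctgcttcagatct
Ugt2b37: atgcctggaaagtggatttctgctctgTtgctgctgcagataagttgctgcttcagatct
Ugt2b5: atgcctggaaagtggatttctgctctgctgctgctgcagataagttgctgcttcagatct

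The genes of the Ugt1a locus on chromosome 1 each have a starting exon of their own and share the exons that follow. Their enzymes conjugate bilirubin, phenols and many drugs. Ugt1a7c (ENSMUSG00000090124, 88095062 to 88220002) carried most of the signal, at 40.2, 110 and 70.1 CPM in uIRI and 752 and 575 CPM in sham, a log2 change of -3.18 ± 0.37 (adjusted p = 0.000206 by edgeR). Of the 9 genes of the locus 4 fell in uIRI (Ugt1a7c, Ugt1a10, Ugt1a2 and Ugt1a8) and 5 did not pass. Ugt1a2 had 10, 40 and 8 counts in uIRI. It passed the filter on low counts only through sham and uIRI+MSC, so its direction in uIRI was fixed in advance. The call of Ugt1a2 was lost without uIRI 3 (-2.93, adjusted p = 0.0516) and without sham 2 (-2.44, adjusted p = 0.123), and its change was -4.25 without uIRI 2. Ugt1a8 fell by 2.45 on the log2 scale, against -1.80 without sham 1. Summed over the locus, the level was 69.0, 165 and 116 CPM in uIRI, against 849 and 657 CPM in sham.

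Counts of the other genes of that locus varied between libraries of the same group. Between 52.1 and 79.8% of the 50-base words of each Ugt1a gene occur in another gene, so their split is uncertain too. Ugt1a5 had 1573, 534 and 506 counts in uIRI+MSC, 125, 0 and 1 counts in uIRI, and 0 and 52 counts in sham. Ugt1a9 had 2, 363 and 3 counts in uIRI+MSC, 0, 3 and 0 counts in uIRI, and 32 and 32 counts in sham. Ugt1a1, which encodes the bilirubin-conjugating enzyme, had 7, 249 and 68 counts in uIRI+MSC, 414, 669 and 13 counts in uIRI, and 61 and 34 counts in sham. Except for the Ugt1a5 counts of uIRI+MSC, which are all above those of the other libraries, and the Ugt1a9 counts of sham against uIRI, the groups overlap in these 3 genes. For Ugt1a9 the ratio of uIRI to sham, from 3 and 64 counts, was 0.0127 with a 95% counting interval of 0.00255 to 0.0387. Ugt1a9 passed the filter on low counts only through the sham libraries and uIRI+MSC 2. Its direction in uIRI was therefore fixed in advance, and the interval covers counting error only. None of the 3 passed in any comparison (adjusted p of 0.0512 to 0.768 by edgeR).

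**Figure D3:**
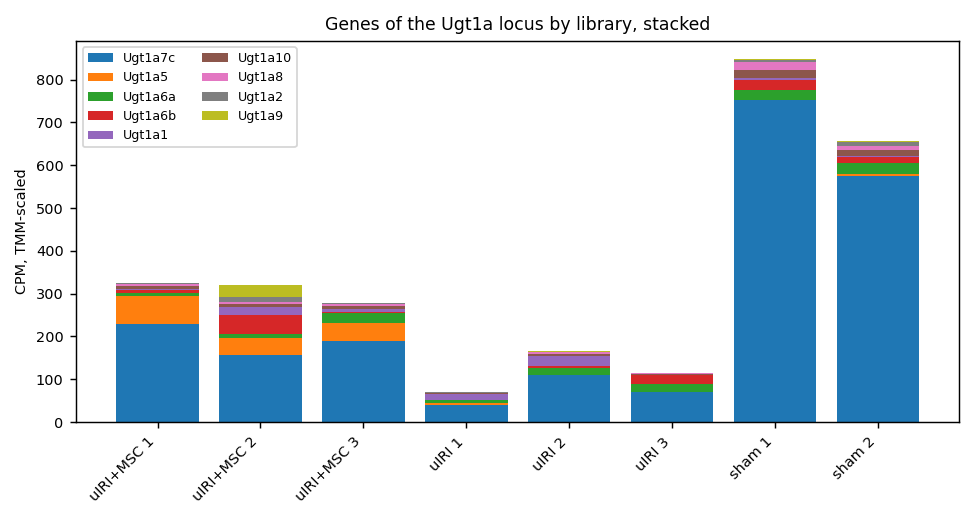
Genes of the Ugt1a locus in each library, as stacked bars of TMM-scaled CPM. Ugt1a7c took 49.3 to 70.4% of the locus in uIRI+MSC, 58.2 to 66.6% in uIRI and 87.5 to 88.7% in sham, and the remainder was divided differently in libraries of the same group.

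Among the sulfotransferases, Sult1d1, Sult1b1 and Sult1c2 fell and Sult4a1 and Sult5a1 rose. Sult1d1 (ENSMUSG00000029273, chromosome 5, 87554645 to 87569027) measured 70.7, 140 and 141 CPM in uIRI against 819 and 640 CPM in sham, a log2 change of -2.64 ± 0.39 (adjusted p = 0.000641 by edgeR). Sult1c2 (ENSMUSG00000023122, chromosome 17, 53829637 to 53846339) measured 27.6, 70.5 and 53.8 CPM in uIRI against 102 and 119 CPM in sham, a log2 change of -1.13 ± 0.32 (adjusted p = 0.0158). All uIRI libraries of both genes lay below sham. The Sult1c2 call was lost without sham 1 (-1.20, adjusted p = 0.0542), without sham 2 (-0.99, adjusted p = 0.0915) or when only library size was used (-0.48). Sult1b1, which encodes a sulfotransferase of thyroid hormones, fell by 2.18 on the log2 scale at a low level (0.673 to 0.990 CPM in uIRI and 3.78 to 4.28 CPM in sham).

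The SULT genes that rose were scarce. Sult5a1 (ENSMUSG00000000739, chromosome 8, 123142847 to 123158315) measured 8.28, 6.23 and 7.82 CPM in uIRI against 0.583 and 2.58 CPM in sham, a log2 change of 2.22 ± 0.57 (adjusted p = 0.00987 by edgeR). The 2 sham libraries differ widely, and the change was 1.55 without sham 1 and 3.68 without sham 2. With 6 and 28 counts in sham, Sult5a1 passed the filter on low counts only through the injured groups. Sult4a1 (ENSMUSG00000018865, chromosome 15, 84076097 to 84105754), best known from brain and without an established substrate, had 42, 65 and 30 counts in uIRI and 0 and 3 in sham. From 137 and 3 counts the ratio was 12.3, with a 95% counting interval of 4.14 to 60.6. It passed the test (adjusted p = 0.00578 by edgeR). Without sham 2 the remaining sham library has 0 counts, so no change is given there, and Sult4a1 passed the filter on low counts only through the injured groups. Counting intervals cover counting error only.

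Of the alpha class GST genes, whose enzymes reduce lipid hydroperoxides and conjugate electrophiles, Gsta3, Gsta2 and Gsta4 fell and Gsta1 did not pass. Gsta3 (ENSMUSG00000025934, chromosome 1, 21240589 to 21265661), whose mouse enzyme detoxifies aflatoxin epoxide, measured 10.1, 21.7 and 13.8 CPM in uIRI against 122 and 99.7 CPM in sham, a log2 change of -2.87 ± 0.31 (adjusted p = 0.000144 by edgeR). Gsta2 (ENSMUSG00000057933, chromosome 9, 78331018 to 78355788) measured 9.53, 57.0 and 41.9 CPM in uIRI against 141 and 136 CPM in sham, a log2 change of -1.94 ± 0.61 (adjusted p = 0.0243). Gsta2 was least abundant in uIRI 1 and its uIRI libraries lay below sham. Its call was lost without sham 1 (-1.89, adjusted p = 0.0913), without sham 2 (-1.94, adjusted p = 0.0768) or when only library size was used (-1.30). Gsta2 shares 49.8% of its 50-base words with other genes and its coding sequence is 97.5% identical to that of Gsta1. Gsta4, whose enzyme conjugates the lipid peroxidation product hydroxynonenal, fell by 0.68 on the log2 scale, a call lost without sham 1 (-0.73), sham 2 (-0.59), uIRI 2 (-0.49), uIRI 3 (-0.73) or uIRI+MSC 1 (-0.68), whose adjusted p-values were 0.0588 to 0.177. It was also lost when the 2 groups were fitted alone (-0.66, adjusted p = 0.0558) and with library size alone (-0.01).

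The mu class had 8 tested genes, of which 4 fell (Gstm1, Gstm2-ps1, Gstm3 and Gstm4), Gstm6 rose and 3 did not pass. Gstm1 (ENSMUSG00000058135, chromosome 3, 108012255 to 108017973), the most abundant of the class, measured 142, 180 and 163 CPM in uIRI against 566 and 386 CPM in sham, a log2 change of -1.56 ± 0.20 (adjusted p = 0.000312 by edgeR). The pseudogene Gstm2-ps1 measured 12.2, 15.1 and 13.2 CPM in uIRI against 57.3 and 37.6 CPM in sham (-1.82 ± 0.22). It shares 35.4% of its 50-base words with Gstm1, so reads of the pseudogene and of Gstm1 cannot be fully told apart. Gstm4 measured 12.2, 12.9 and 10.8 CPM in uIRI against 21.4 and 20.3 CPM in sham (-0.79 ± 0.16), a call lost with library size alone (-0.12). Gstm6 (ENSMUSG00000068762, chromosome 3, 107938847 to 107943749) rose, with 4.34, 5.76 and 4.14 CPM in uIRI and 1.26 and 1.29 CPM in sham, a log2 change of 1.89 ± 0.31 (adjusted p = 0.00111). Gstm1, Gstm4 and Gstm6 did not overlap between groups.

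The remaining GST classes are small. Gstz1 (ENSMUSG00000021033, chromosome 12, 87147707 to 87164721) measured 40.3, 76.2 and 67.6 CPM in uIRI against 424 and 289 CPM in sham (-2.54 ± 0.29, adjusted p = 0.000191 by edgeR). Gstk1 (ENSMUSG00000029864, chromosome 6, 42245935 to 42250447), whose kappa class enzyme sits in mitochondria and peroxisomes, measured 11.8, 16.0 and 15.4 CPM in uIRI against 69.8 and 57.7 CPM in sham. Its change of -2.15 ± 0.18 had the smallest adjusted p of all members (5.8e-05). Both genes were several-fold lower in every uIRI library.

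All 3 tested theta class genes, neighbours on chromosome 10, fell. Gstt2 measured 25.8, 47.9 and 53.8 CPM in uIRI against 178 and 155 CPM in sham (-1.97 ± 0.35). Gstt3 measured 24.5, 24.0 and 31.7 CPM in uIRI against 64.9 and 60.1 CPM in sham (-1.23 ± 0.16). Gstt1 measured 59.0, 82.0 and 80.6 CPM in uIRI against 118 and 116 CPM in sham (-0.67 ± 0.20). The uIRI libraries lay below sham in all 3 genes. The Gstt1 call was lost without uIRI 1 (-0.52, adjusted p = 0.0503), without sham 1 (-0.64, adjusted p = 0.102), without sham 2 (-0.65, adjusted p = 0.0869) or when only library size was used, where its change was near 0. Gstp1 (ENSMUSG00000060803, chromosome 19, 4035407 to 4037921) measured 43.0, 55.3 and 48.5 CPM in uIRI against 116 and 89.96 CPM in sham (-1.08 ± 0.27, adjusted p = 0.00892 by edgeR), lost when sham 1 was left out (-0.86, adjusted p = 0.0862) or only library size was used (-0.41). The coding sequence of Gstp1 is 98.1% identical to that of Gstp2, and 33.7% of the 50-base words of Gstp1 occur in another gene. Gsto1 (ENSMUSG00000025068, chromosome 19, 47854970 to 47864790), whose omega class enzyme reduces dehydroascorbate and protein mixed disulfides, rose. Its level was 84.0, 68.0 and 78.0 CPM in uIRI and at 45.8 and 56.0 CPM in sham (0.59 ± 0.14, adjusted p = 0.00768), and missed the threshold without sham 1 (0.47, adjusted p = 0.0716).

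**Figure D4:**
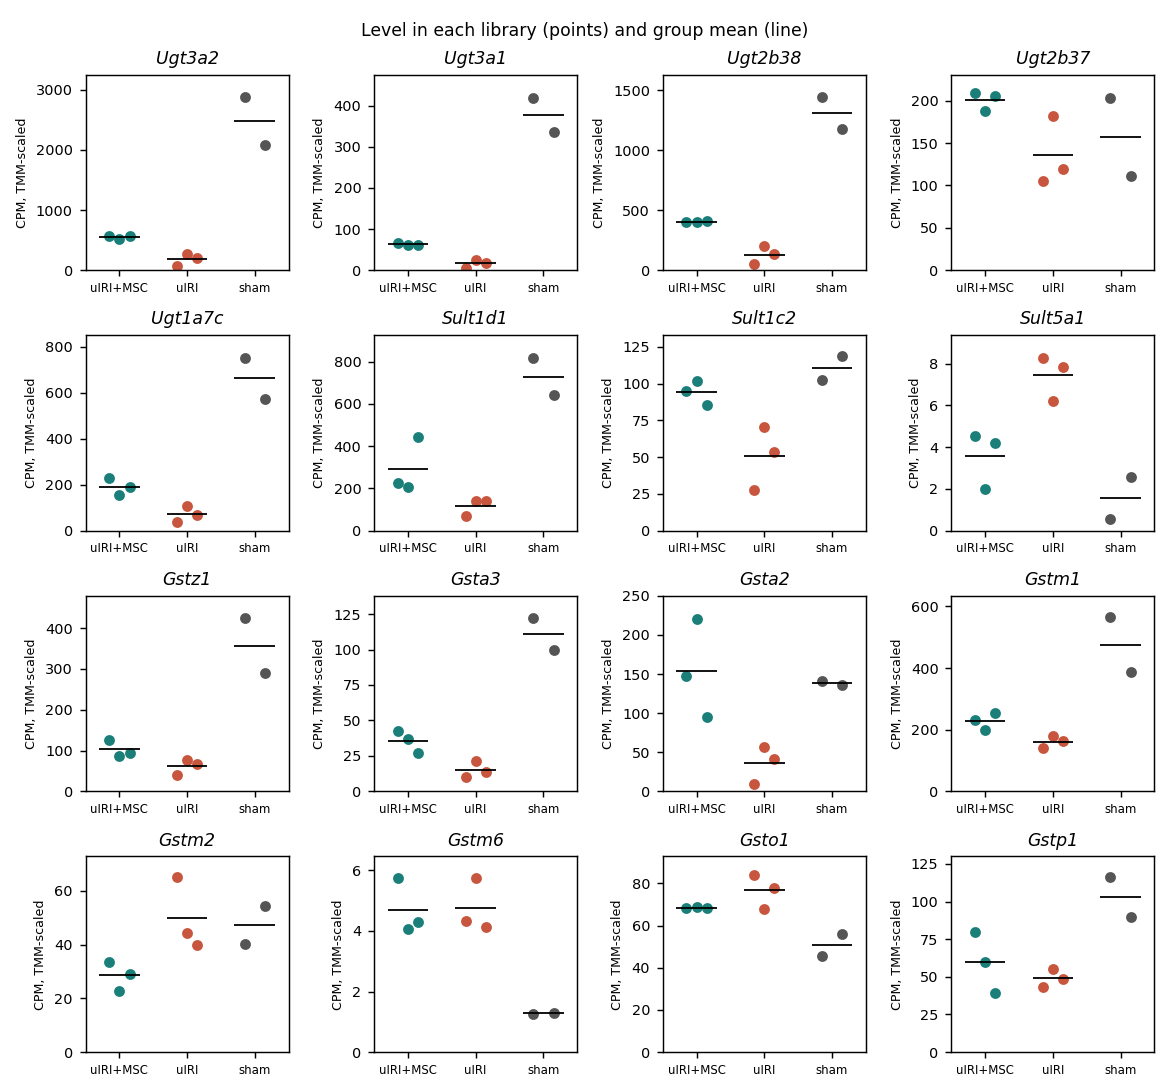
TMM-scaled CPM of 16 members in each library (points) with the group mean (line), for uIRI+MSC (n = 3), uIRI (n = 3) and sham (n = 2). Ugt3a1, Ugt2b38, Sult1d1 and Gsta3 were highest in sham and lowest in uIRI, Gsto1 and Gstm6 were lowest in sham, and Gsta2 in uIRI+MSC (94.7 to 221) spanned its sham values (141 and 136).

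The comparison of uIRI+MSC with uIRI asks what differed after the cells were given. By edgeR no member passed, and no gene of all 16576 tested did, so the differences described here are values that did not pass the adjusted threshold. Without adjustment 3418 genes had p under 0.05. Among the members 19 were higher and 4 lower at that level, against 11.3% and 9.34% of all tested genes. DESeq2 called 14 of the 44 members higher and 1 lower, against 4.79% and 3.44% of all tested genes, and limma-voom called none. The 14 were Ugt1a2, Ugt1a7c, Ugt1a10, Ugt2b5, Ugt2b34, Ugt2b38, Ugt3a1, Ugt3a2, Sult1b1, Sult1c2, Sult1d1, Gsta1, Gsta2 and Gsta3, and the single lower gene was Gstm2. Of these, Ugt1a2 passed the filter on low counts only through uIRI+MSC and sham, so its direction was fixed in advance. Of the 50-base words of Gsta1, 90.5% occur in another gene. In 19 members every uIRI+MSC library lay above every uIRI library and in 3 below, against 14.1% and 12.7% of all tested genes.

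The median log2 difference of uIRI+MSC from uIRI was 1.25 over UGT genes, 0.13 over SULT genes and 0.32 over GST genes, with -0.01 over all tested genes. The UGT sum was 621, 608 and 590 FPKM in uIRI+MSC and 154, 368 and 258 FPKM in uIRI, a log2 ratio of 1.22, with no overlap. The SULT sum was 155, 151 and 234 FPKM in uIRI+MSC and 64.3, 115 and 108 FPKM in uIRI (0.91), also without overlap. The GST sums of 667, 638 and 485 FPKM in uIRI+MSC and 410, 507 and 478 FPKM in uIRI overlapped (0.36). These 3 sums were given no test.

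The members with the lowest levels in uIRI relative to sham were among those with higher values in uIRI+MSC. The 2 comparisons share the uIRI libraries, so their values are only set side by side. Ugt3a1 stood at 66.9, 61.4 and 62.1 CPM in uIRI+MSC and at 5.25, 25.7 and 17.8 CPM in uIRI (1.97 ± 0.46, adjusted p = 0.111 by edgeR and 0.00108 by DESeq2). Ugt3a2 stood at 573, 512 and 566 CPM in uIRI+MSC and at 65.4, 262 and 207 CPM in uIRI (1.63 ± 0.43, adjusted p = 0.122 and 0.00402). Ugt2b38 stood at 404, 402 and 407 CPM in uIRI+MSC and at 54.9, 199 and 131 CPM in uIRI (1.66 ± 0.39, adjusted p = 0.111 and 0.0014). The uIRI+MSC libraries lie close together in these genes, and the uIRI libraries are spread, with uIRI 1 lowest.

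Further members showed the same pattern of values. Ugt1a7c stood at 229, 157 and 190 CPM in uIRI+MSC and at 40.2, 110 and 70.1 CPM in uIRI (1.39 ± 0.33, adjusted p = 0.112 by edgeR and 0.00295 by DESeq2). Sult1d1 stood at 224, 206 and 441 CPM in uIRI+MSC and at 70.7, 140 and 141 CPM in uIRI (1.31 ± 0.36, adjusted p = 0.123 and 0.00797), with uIRI+MSC 3 the highest. Gsta3 stood at 42.3, 37.1 and 26.9 CPM in uIRI+MSC and at 10.1, 21.7 and 13.8 CPM in uIRI (1.22 ± 0.28, adjusted p = 0.111 and 0.00405). None of these genes overlapped between the groups.

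Gsta2 had the largest difference among the GST genes, 148, 221 and 94.7 CPM in uIRI+MSC and 9.53, 57.0 and 41.9 CPM in uIRI (2.10 ± 0.57, adjusted p = 0.123 by edgeR and 0.0323 by DESeq2). It had the highest mean FPKM of the GST genes in uIRI+MSC (110, or 13.6 to 25.0% of the GST sum), which rests on uIRI+MSC 2, since Gstp1 was higher in uIRI+MSC 1 (111 FPKM, with Gsta2 at 106) and Gstm1 in uIRI+MSC 3 (90.8 FPKM, with Gsta2 at 65.8), while Gstp1 led in uIRI (15.4 to 16.9%) and Gstz1 in sham (18.3 to 21.5%). Ugt2b5 stood at 11.9, 13.4 and 14.7 CPM in uIRI+MSC and at 5.45, 8.47 and 7.35 CPM in uIRI (0.91 ± 0.23, adjusted p = 0.118 and 0.012). Sult1c2 stood at 94.97, 102 and 85.3 CPM in uIRI+MSC and at 27.6, 70.5 and 53.8 CPM in uIRI (0.89 ± 0.29, adjusted p = 0.15 and 0.0495). In all 3 genes the uIRI+MSC libraries lay above those of uIRI. The same held for all 4 tested UGT2B genes, Ugt2b37 among them. Gstz1 stood at 126, 87.2 and 94.6 CPM in uIRI+MSC and at 40.3, 76.2 and 67.6 CPM in uIRI (0.74), without overlap.

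Some other members had lower, nearly equal or overlapping values. Gstm2, a mu class gene named here after its values were seen, stood at 33.7, 22.8 and 29.2 CPM in uIRI+MSC and at 65.3, 44.5 and 39.9 CPM in uIRI (-0.80 ± 0.23, adjusted p = 0.126 by edgeR and 0.0227 by DESeq2). The ratio of Gstm1 to Gstm2 within a library was 6.37, 8.04 and 8.05 in uIRI+MSC and 2.02, 3.75 and 3.79 in uIRI. Sult5a1 stood at 4.52, 2.00 and 4.20 CPM in uIRI+MSC and at 8.28, 6.23 and 7.82 CPM in uIRI (-1.05 ± 0.44, adjusted p = 0.227). Both genes were lower in every uIRI+MSC library. Gstm4 (-0.01 ± 0.15), Gstm6 (-0.01 ± 0.24), Gstt1 (0.11 ± 0.18), Sult4a1 (0.13 ± 0.46) and Gsto1 (-0.16 ± 0.12) differed by less than 1 SE or little more, and overlapped. Gstk1 stood at 20.1, 18.7 and 15.4 CPM in uIRI+MSC and at 11.8, 16.0 and 15.4 CPM in uIRI (0.33), and overlapped. The 3 tested theta class genes (0.11 to 0.61) and the 2 tested pi class genes (0.29 to 0.57) overlapped too.

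The 12 proximal tubule markers had a summed level of 8470 to 12758 CPM in uIRI+MSC and 1632 to 6033 CPM in uIRI, and a median log2 difference of 1.39, although none passed by edgeR. The 5 macrophage markers summed to 1273 to 1901 CPM in uIRI+MSC and 2367 to 3851 CPM in uIRI, with a median of -0.97. The 4 markers of injured tubule summed to 1439 to 2514 CPM in uIRI+MSC and 772 to 1303 CPM in uIRI (median 0.90), without overlap. Medians were 1.22 for the distal convoluted tubule, 0.93 for the principal cell and -0.67 for the thick ascending limb. The part of these shifts in the differences of the conjugating enzymes was not tested.

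The comparison of uIRI+MSC with sham shows how far the treated kidneys stood from uninjured ones. Of the 44 tested members 19 were lower and 4 higher by edgeR, where 20.3% of all tested genes were lower and 22.1% higher, and the median log2 difference was -0.75 over the members and 0.03 over all genes. By family 6 of 16 UGT genes were lower and 1 higher, 1 of 7 SULT genes lower and 1 higher, and 12 of 21 GST genes lower and 2 higher. Without sham 1 the number of lower members was 10. Scaling by library size alone gave 9 lower and 8 higher, against 8.16% and 44.6% of all tested genes, with a median over all genes of 0.55. In 26 members every uIRI+MSC library lay below both sham libraries and in 6 above both, against 31.2% and 33% of all tested genes. This comparison shares its libraries with the other 2.

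The lowest log2 differences that passed were again those of the UGT3 genes. Ugt3a1 stood at 66.9, 61.4 and 62.1 CPM in uIRI+MSC and at 420 and 335 CPM in sham (-2.57 ± 0.49, adjusted p = 0.00357 by edgeR). Ugt3a2 differed by -2.17 ± 0.47, which missed the threshold without sham 1 (-1.89, adjusted p = 0.0515), and Ugt2b38 by -1.69 ± 0.42, which also missed it without sham 1 (-1.50, adjusted p = 0.079). Sult1d1 differed by -1.33 ± 0.39 (adjusted p = 0.0231). That call was lost without uIRI+MSC 1 (-1.17), uIRI+MSC 2 (-1.13), sham 1 (-1.11) or sham 2 (-1.46), whose adjusted p-values were 0.0571 to 0.145, and with library size alone (-0.82).

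Gstk1 stood at 20.1, 18.7 and 15.4 CPM in uIRI+MSC and at 69.8 and 57.7 CPM in sham (-1.82 ± 0.18, adjusted p = 0.00022 by edgeR), Gstz1 differed by -1.80 ± 0.29, Gsta3 by -1.64 ± 0.30 and Gstm1 by -1.06 ± 0.20. All 4 were lower in every uIRI+MSC library. Gstt2 differed by -1.36 ± 0.35, a call lost without sham 1 (-1.22, adjusted p = 0.0894) or when only library size was used (-0.84). Gsta2, at 148, 221 and 94.7 CPM in uIRI+MSC and 141 and 136 CPM in sham, overlapped (0.16 ± 0.61, adjusted p = 0.855), and the sign turned without uIRI+MSC 2 (-0.19). Sult1c2 stood at 94.97, 102 and 85.3 CPM in uIRI+MSC and at 102 and 119 CPM in sham (-0.23 ± 0.32, adjusted p = 0.589), where library size alone turned the sign (0.28).

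The members above sham were Ugt2b5, Sult4a1, Gstm6 and Gsto1. Ugt2b5 stood at 11.9, 13.4 and 14.7 CPM in uIRI+MSC and at 6.80 and 4.51 CPM in sham (1.23 ± 0.27, adjusted p = 0.00733 by edgeR). It is the single UGT gene called higher in any comparison by edgeR with TMM scaling, and it missed the threshold without sham 2 (1.00, adjusted p = 0.0543). Sult4a1 had 48, 17 and 30 counts in uIRI+MSC and 0 and 3 counts in sham, a ratio of 13.5 (95% counting interval 4.47 to 66.4). Its direction was fixed in advance, because it passed the filter on low counts only through the injured groups. Gstm6 stood at 5.74, 4.07 and 4.28 CPM in uIRI+MSC and at 1.26 and 1.29 CPM in sham (1.88 ± 0.32, adjusted p = 0.00203). Gsto1 stood at 68.5, 68.9 and 68.4 CPM in uIRI+MSC and at 45.8 and 56.0 CPM in sham (0.43 ± 0.14, adjusted p = 0.0387), a call lost without uIRI+MSC 1 (0.43), uIRI+MSC 2 (0.43), uIRI 3 (0.43) or sham 1 (0.33), whose adjusted p-values were 0.06 to 0.22. It was also lost with no filter (0.45, adjusted p = 0.0517) and when the 2 groups were fitted alone (0.44, adjusted p = 0.055).

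Genes that supply the 3 families, or are related to them, were followed in lists chosen for their role. They were chosen with earlier results of these data known, and their counts stand beside 26.3% of all tested genes lower and 28.3% higher in uIRI against sham. For uIRI against sham, 6 of 9 tested genes for the supply of UDP-glucuronic acid fell and 2 rose (median log2 change -1.20). Ugdh, whose enzyme oxidises UDP-glucose to UDP-glucuronic acid, measured 60.4, 57.9 and 53.1 CPM in uIRI against 178 and 131 CPM in sham (-1.43 ± 0.20). Ugp2, which makes UDP-glucose, fell by 1.35, the phosphoglucomutase gene Pgm2 by 1.86, and Slc35d1, which encodes a carrier of UDP-sugars into the endoplasmic reticulum, by 1.20 on the log2 scale. In the list for the supply and use of PAPS and sulfate, 7 of 14 tested genes fell and 3 rose (median -0.78). Papss2, a PAPS synthase gene, measured 53.0, 96.7 and 93.3 CPM in uIRI against 530 and 514 CPM in sham (-2.69 ± 0.25). Bpnt1, whose phosphatase clears the spent donor, fell by 2.45 and the arylsulfatase gene Arsb by 1.93, while Tpst1, a tyrosylprotein sulfotransferase of the Golgi, rose by 2.45. The libraries of uIRI and sham did not overlap in the genes whose values are given.

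Glutathione synthesis and recycling had 12 tested genes, of which 9 fell and 1 rose (median -2.32). Cbs, which feeds homocysteine towards cysteine, measured 12.8, 30.8 and 25.5 CPM in uIRI against 446 and 283 CPM in sham (-3.99 ± 0.35). Gclc, the catalytic subunit of the limiting step, fell by 2.62, Ggct by 2.67 and the glutathione reductase gene Gsr by 1.73. All 12 tested genes of the mercapturate pathway passed, 9 lower and 3 higher (median -1.72). Acy3, an aminoacylase that removes the acetyl group from mercapturates, measured 76.2, 200 and 132 CPM in uIRI against 2793 and 1901 CPM in sham (-4.11 ± 0.42). Acy1 fell by 3.59 and the leucine aminopeptidase gene Lap3 by 2.43, and the dipeptidase gene Dpep2 rose by 4.10.

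The list of membrane-bound and other glutathione transferases also holds related proteins that are not transferases, such as those of Alox5ap and Clic1. It had 11 tested genes, of which 3 rose, 1 fell and 7 missed the threshold (median 0.34), where 28.3% of all tested genes rose. Hpgds, the prostaglandin D synthase of haematopoietic cells, measured 44.3, 33.6 and 32.4 CPM in uIRI against 1.46 and 1.47 CPM in sham (4.64 ± 0.32). Alox5ap, which presents arachidonic acid for leukotriene synthesis, rose by 3.34 and Clic1 by 1.22, and Mgst3 fell by 1.26. Other conjugating enzymes had 14 tested genes, of which 12 fell and 1 rose (median -2.41), among them Acsm3 (-6.12), Inmt (-4.48) and Acsm5 (-3.27). Bhmt had 1 count over the 3 uIRI libraries and 22 and 24 counts in sham.

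Among 15 tested regulators 9 fell and 3 rose (median -0.54). Hnf4a, a nuclear receptor of proximal tubule and liver genes, fell by 2.21 and Ppara, a nuclear receptor of fatty acid oxidation, by 2.36 on the log2 scale. Nfe2l2, which encodes the antioxidant response factor NRF2 and is named here for its link to the antioxidant pattern, after its values were seen, measured 183, 172 and 198 CPM in uIRI against 134 and 123 CPM in sham (0.52 ± 0.15, adjusted p = 0.0203 by edgeR).

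In uIRI+MSC against uIRI no gene of these lists passed by edgeR. The median log2 differences were 0.51 for UDP-glucuronic acid supply, 0.23 for PAPS and sulfate, 0.75 for glutathione synthesis and 0.83 for the mercapturate pathway. They were 0.05 for membrane-bound and other transferases with related proteins, 1.10 for other conjugating enzymes and 0.11 for regulators.

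**Figure D5:**
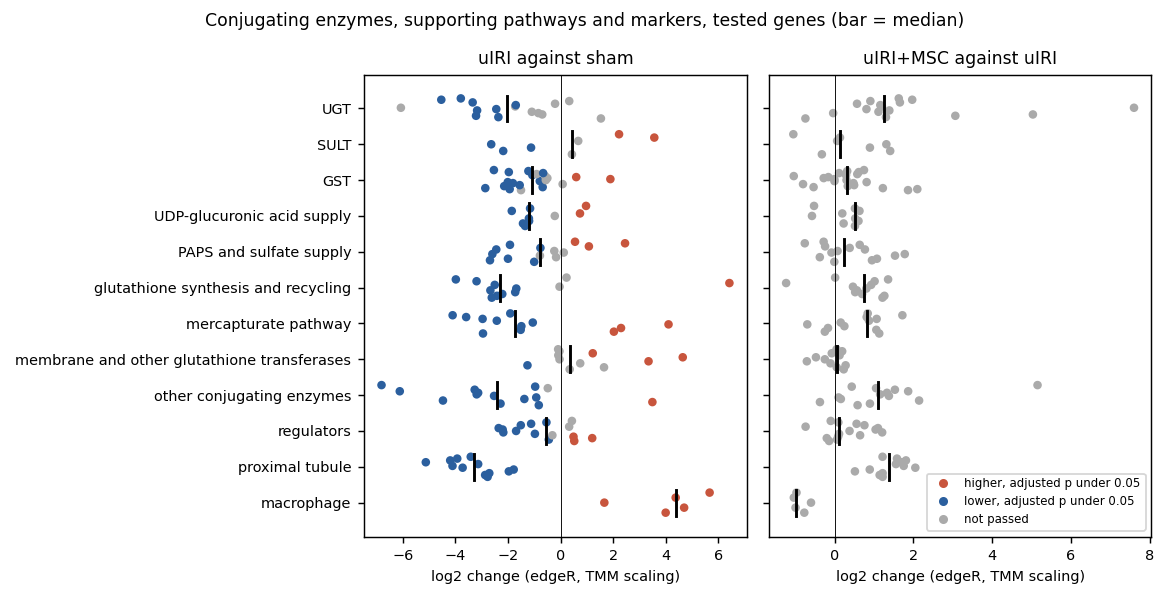
Log2 change of each tested gene (points) and the median (bar) of the 3 families, 7 lists of related genes and 2 marker lists, for uIRI against sham and uIRI+MSC against uIRI. In uIRI against sham the medians ran from -3.28 (proximal tubule markers) to 4.37 (macrophage markers), and in uIRI+MSC against uIRI no point passed.

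For 2 letter patterns, searched on both strands, matches in the 250 bases before each start of the members are given. The start sites and sequences are those of RefSeq on GRCm38.p6, which held 53 of the 68 members. The antioxidant response pattern TGACNNNGC was found in 3 members (5.66%), Gsta3, Gstm5 and Gstm7, against 11.5% of all 27025 genes in the table. The xenobiotic response pattern TNGCGTG was also found in 3 (5.66%), Gsta2, Sult1d1 and Ugt1a5, against 4.76%. A match is a description of the letters and not a site, and no binding was measured in these samples.

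The promoters of Gsta2 and Gsta3 are printed because these alpha class members fell in uIRI and hold a pattern, each a different one. Capitals mark the pattern. In Gsta2 (chr9:78347146-78347395, minus strand) the xenobiotic pattern begins 9 bases before the start. In Gsta3 (chr1:21240335-21240584, plus strand) the antioxidant pattern begins 121 bases before the start.
Gsta2: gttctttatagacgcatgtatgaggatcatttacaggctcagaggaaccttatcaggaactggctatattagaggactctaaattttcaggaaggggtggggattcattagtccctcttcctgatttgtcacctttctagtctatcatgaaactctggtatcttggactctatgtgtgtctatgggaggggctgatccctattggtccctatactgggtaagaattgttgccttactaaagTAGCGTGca
Gsta3: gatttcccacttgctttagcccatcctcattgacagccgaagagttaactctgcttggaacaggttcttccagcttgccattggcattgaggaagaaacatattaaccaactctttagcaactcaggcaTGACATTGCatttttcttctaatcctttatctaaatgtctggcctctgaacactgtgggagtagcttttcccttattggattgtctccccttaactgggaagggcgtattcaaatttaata
Of the 20 members with a promoter in the table that fell in uIRI, 2 held the xenobiotic pattern and 1 the antioxidant pattern.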

How the data were processed

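The authors deposited gene counts and FPKM values for 8 kidney libraries. Counts were read as deposited, whole and not normalized, and FPKM values, scaled by the authors for length and library size per the file headers, were used only to compare levels between genes and to sum families. Per the submitters' processing notes, which give no roles, the tools were StringTie 1.3.3b, edgeR 3.2.0, HISAT2 2.0.4, SAMtools 1.9, FastQC 0.10.1 and Bowtie2 2.2.6, and the counting of reads that match several genes is not stated.

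Genes passing filterByExpr (minimum count 10; 16576 genes) were scaled by TMM and fitted over the 3 groups by the quasi-likelihood test of edgeR 4.0.16 (R 4.3.3, legacy dispersion, 5 residual degrees of freedom), two-sided, with Benjamini-Hochberg adjustment over all tested genes and a threshold of 0.05. All adjusted p-values are from edgeR unless DESeq2 is named. The standard error is the size of the log2 change divided by the square root of F. Alternatives used DESeq2 1.42.0, limma-voom (limma 3.58.1), DESeq2 size factors, library size alone, no filter, only the compared groups, a replicate block, each library left out and edgeR's newer dispersion estimate, the last chosen after seeing the data. Tables and figures used Python 3.11.15, pandas 2.3.3, numpy 2.4.6, scipy 1.17.1 and matplotlib 3.10.9.

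Per-library values were given for members that passed in a comparison and had a mean FPKM of at least 5 in a group (up to 12 a family by the smallest p in uIRI against sham), for members higher in uIRI than in sham, and for the most abundant member of each family and group. Ugt1a1, Ugt1a2, Ugt1a5, Ugt1a8, Ugt1a9, Ugt1a10, Ugt2b34, Sult1b1, Gsta1, Gsta4, Gstm2, Gstm3, Gstm5 and Gstm7 fall outside that rule and were named after their values were seen. Of each list up to 4 genes with the smallest p in uIRI against sham were named, and some regulators and a promoter pattern are not reported here. Members and lists were chosen with earlier results of these data known. Protein identity, planned at the outset, was replaced by coding identity and shared 50-base words, because no protein sequences were used here. Replicate numbers are those of the labels, and depth limits members with few counts.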

Additional observations from a re-analysis of the deposited data

How the results depend on the processing

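Over 16 alternatives, 19 of the 28 members called in uIRI against sham and 9 of the 23 called in uIRI+MSC against sham kept their call in all. Leaving out a library gave 3 to 4 members higher and 18 to 25 lower in uIRI against sham, 3 to 5 higher and 10 to 20 lower in uIRI+MSC against sham, and 0 in uIRI+MSC against uIRI. Library size alone gave 8 higher in uIRI against sham, and 8 higher and 9 lower in uIRI+MSC against sham. DESeq2 gave 14 higher and 1 lower in uIRI+MSC against uIRI. Summed as TMM-scaled CPM, the log2 ratios of uIRI to sham were -3.10 (UGT), -2.13 (SULT) and -1.38 (GST), and those of uIRI+MSC to sham -1.71, -1.07 and -0.91. Signs turned for Ugt2b37 in uIRI against sham (0.46 with library size alone, -0.56 to 0.31 leaving out a library). In uIRI+MSC against uIRI they turned for Sult4a1 (-0.0154 with library size alone, -0.0764 to 0.43 leaving out a library), Gstm4 (0.0044 with limma-voom, -0.0759 to 0.05), Gstm6 (0.0208 with limma-voom, 0.0001 with the newer dispersion estimate, -0.19 to 0.15) and Gstt1 (-0.0312 with library size alone, -0.0297 to 0.27). In uIRI+MSC against sham they turned for Sult1c2 (0.28 with library size alone) and Gsta2 (-0.19 to 0.45 leaving out a library). The cause was not tested. Same-numbered libraries did not deviate together (correlations -0.21 to 0.11), so the numbers were not taken as pairs. With the replicate block, 4 members were higher and 26 lower in uIRI against sham, 0 in uIRI+MSC against uIRI, and 3 higher and 16 lower in uIRI+MSC against sham. Only 2 sham libraries were available, and a fit without either assumes that the remaining sham library varies like the other groups. Sult4a1 is among the calls kept in all alternatives in both comparisons with sham. Its direction was fixed by the filter on low counts, and without sham 2 the remaining sham library has 0 counts of it.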
